A study of Mus musculus with 20 samples.

Results

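Pericentral hepatocytes line the central vein of the liver lobule. A set of 10 genes that mark this zone was read in whole-liver RNA from 20 mice of 4 groups: Glul, Oat, Slc1a2, Slc1a4, Rhbg, Lgr5, Axin2, Tbx3, Cyp2e1 and Cyp1a2. The genes were chosen by symbol as known markers of the zone, with earlier results of these data known, so that the list is not independent of them. All 10 were found, each at 1 of the 25444 loci of the deposited tables, and all 10 passed the filter on low counts that left 13704 genes for testing. The groups were females and males of the inbred strains C57BL/6N (B6) and C3H/HeN (C3), with 5 livers each, and all mice were 20 weeks old. The labels name no treatment and no engineered allele. RNA came from the left lateral lobe, and per the methods the sexes were housed in separate rooms, so that sex and room cannot be told apart. The libraries were sequenced in 3 pools that each held 1 or 2 livers of every group, so that a difference within a pool rests on few livers. Depth followed the pool. Pool 2, with 5 livers, had between 27370921 and 31280663 counted read pairs per library, pool 1, with 8 livers, between 33107889 and 36673533, and pool 3, with 7 livers, between 38928480 and 46835745.

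Blood flows along the liver plate from the portal vein to the central vein, and hepatocytes along this path express different enzymes. The last cells before the central vein take up the ammonia and glutamate that urea synthesis upstream has left and fix them as glutamine, with Glul as the enzyme. Endothelial cells of the central vein secrete Wnt ligands and R-spondin, and the beta-catenin signal that these raise in the neighbouring hepatocytes is known to keep the pericentral programme on. In these bulk samples, fewer pericentral cells and less of a transcript per pericentral cell cannot be told apart.

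The clearest difference among the marker genes was between strains. In C3 females 6 of the 10 genes were lower than in B6 females, and in C3 males 5 of the 10 were lower than in B6 males. A gene was called here when the adjusted p of edgeR's quasi-likelihood test was under 0.001 and its log2 fold change lay beyond 0.5, up or down. No marker gene was called higher in C3. Over all 13704 genes tested, 4.77% were called lower in C3 females and 5.55% in C3 males, while 9.4% and 9.64% were called in either direction. At an unadjusted p under 0.05, 8 of the 10 genes differed between strains in females and 6 in males, beside 41.9% and 44.3% of all genes. The genes Glul, Oat, Slc1a2 and Rhbg were called lower in both sexes, as were 3.28% of all genes. The median log2 fold change over the 10 genes was -0.70 in females and -0.46 in males, beside 0.02 and 0.01 over all genes. Each library came from a different mouse, and comparisons by strain and by sex share the livers of a group.

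**Figure D1:**
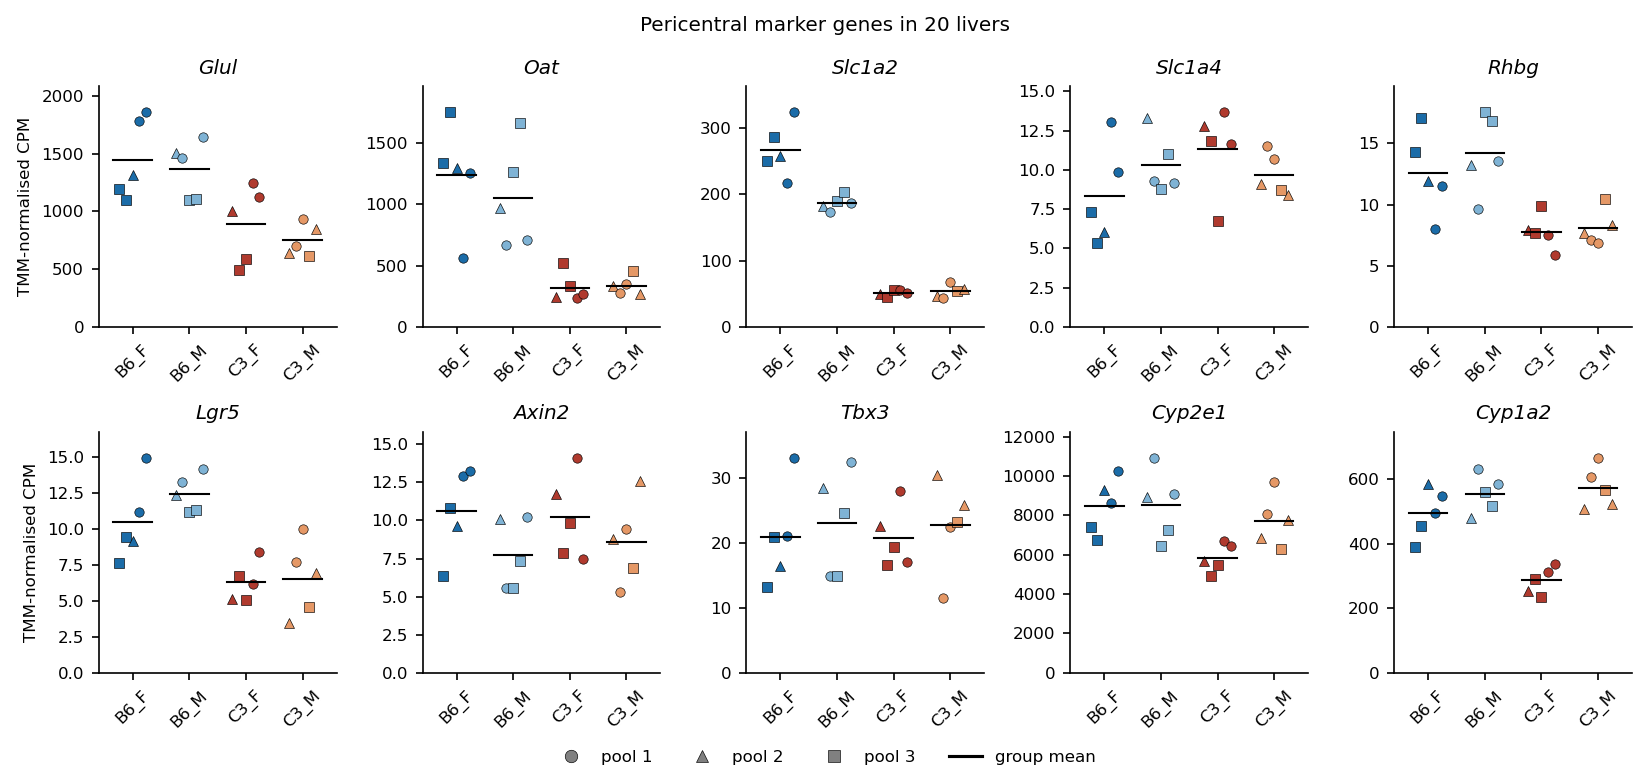
TMM-normalised CPM (linear axes from 0) of the 10 pericentral marker genes in each of the 20 livers, by group, with the sequencing pool as the marker shape and a line at the mean of 5 livers. Slc1a2 and Oat stand at separate levels in B6 and C3 livers in both sexes, and Cyp1a2 is low only in C3 females.

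Each gene was one locus of build mm9 in the deposited tables. The ammonia and glutamate genes were Glul (gene ID 14645) on the plus strand of chromosome 1 from 155747059 to 155756853, Oat (gene ID 18242) on the minus strand of chromosome 7 from 139749158 to 139768081, Slc1a2 (gene ID 20511) on the plus strand of chromosome 2 from 102498840 to 102630941, Slc1a4 (gene ID 55963) on the minus strand of chromosome 11 from 20202183 to 20232716 and Rhbg (gene ID 58176) on the minus strand of chromosome 3 from 88046796 to 88058606. The Wnt-responsive genes were Lgr5 (gene ID 14160) on the minus strand of chromosome 10 from 114887370 to 115024836, Axin2 (gene ID 12006) on the plus strand of chromosome 11 from 108781663 to 108812095 and Tbx3 (gene ID 21386) on the plus strand of chromosome 5 from 120120871 to 120134733. The cytochromes were Cyp2e1 (gene ID 13106) on the plus strand of chromosome 7 from 147949731 to 147960876 and Cyp1a2 (gene ID 13077) on the minus strand of chromosome 9 from 57524744 to 57531462. Glul alone overlapped another gene on its strand, the microRNA gene Mir8114, and read pairs that fell on both were not counted.

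Promoter sequence was read for the genes whose strain and sex differences follow. Of the 10 genes, 7 had an entry in a RefSeq promoter table of build GRCm38.p6. Rhbg, Lgr5 and Tbx3 were not analysed here. The 250 bases before the start were searched on both strands for CTTTGA, the core that TCF and LEF factors bind, for TTCNNNGAA, the STAT core, and for GCGTG, the core of the aryl hydrocarbon receptor. The start is that of the entry in the promoter table, which may differ from the start of the mm9 locus that was counted. No match to one motif overlapped a match to another. Over all 32851 promoters of the table, 13.8%, 7.02% and 28.2% held a match. Slc1a2 had 2 matches to CTTTGA, starting 206 and 77 bases before the start. Cyp2e1 had 1 at 135 bases and Cyp1a2 1 at 243 bases. Slc1a4 had 2 matches to GCGTG, at 223 and 18 bases. Glul, Oat and Axin2 had none of the 3 motifs in this window, and no gene had the STAT core.

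Shown 5′ to 3′ on the strand of the gene are Slc1a2 and Cyp1a2, for the matches to CTTTGA (capitals, on either strand) in genes that differed most by strain and by sex, and Glul and Oat, which were lower in C3 of both sexes and hold none. The sequence is that of the C57BL/6J reference, and C3 alleles are not in it.
Slc1a2, chr2:102706188-102706437, plus strand: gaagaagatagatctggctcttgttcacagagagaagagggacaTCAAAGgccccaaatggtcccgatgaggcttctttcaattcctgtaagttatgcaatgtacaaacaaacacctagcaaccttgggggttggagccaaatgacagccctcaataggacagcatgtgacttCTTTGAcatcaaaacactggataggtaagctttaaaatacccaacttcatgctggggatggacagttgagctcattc
Cyp1a2, chr9:57683656-57683905, minus strand: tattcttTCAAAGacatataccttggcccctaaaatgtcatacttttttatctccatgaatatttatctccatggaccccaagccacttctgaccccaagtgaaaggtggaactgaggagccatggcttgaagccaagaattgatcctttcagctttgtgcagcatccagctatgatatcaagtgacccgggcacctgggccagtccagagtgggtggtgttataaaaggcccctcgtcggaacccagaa
Glul, chr1:153899679-153899928, plus strand: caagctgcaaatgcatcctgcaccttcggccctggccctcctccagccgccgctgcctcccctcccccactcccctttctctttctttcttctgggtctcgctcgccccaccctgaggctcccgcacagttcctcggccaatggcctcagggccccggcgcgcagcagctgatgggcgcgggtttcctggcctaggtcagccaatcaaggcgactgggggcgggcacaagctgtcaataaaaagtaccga
Oat, chr7:132576399-132576648, minus strand: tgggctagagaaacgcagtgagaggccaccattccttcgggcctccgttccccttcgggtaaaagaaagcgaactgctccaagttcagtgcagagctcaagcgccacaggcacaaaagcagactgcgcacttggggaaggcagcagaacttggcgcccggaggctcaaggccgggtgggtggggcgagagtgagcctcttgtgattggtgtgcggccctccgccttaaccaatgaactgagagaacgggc

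The genes that handle ammonia, ornithine and glutamine were lower in C3 of both sexes. Levels are given in CPM, the count scaled to library size with TMM factors. Glul encodes glutamine synthetase, which joins ammonia to glutamate. From the lowest to the highest liver, Glul stood at 1100.3, 1191, 1314, 1779.6 and 1863 CPM in B6 females and at 489, 591, 1005, 1122 and 1245 CPM in C3 females. In B6 males the livers held 1099, 1112, 1463, 1510.2 and 1642 CPM, and in C3 males 617, 643, 702, 845 and 937 CPM. The male strains did not overlap, and in females the highest C3 livers reached above the lowest B6 livers. Glul was 1.68-fold lower in C3 females (log2 fold change -0.75 ± 0.12 SE, edgeR adjusted p = 0.000103) and 1.93-fold lower in C3 males (-0.95 ± 0.12, edgeR adjusted p = 8.37e-06). The log2 difference between the strains was -0.62, -0.39 and -1.09 within pools 1, 2 and 3 in females and -0.93, -1.03 and -0.84 in males. Glul did not differ between the sexes beyond the threshold (0.07 ± 0.12 in B6 and 0.27 ± 0.12 in C3).

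Oat encodes ornithine aminotransferase, a mitochondrial enzyme that passes the amino group of ornithine on towards glutamate. The B6 females stood at 563, 1255, 1300.0, 1336 and 1757 CPM of Oat and the B6 males at 667, 709, 975, 1265 and 1664 CPM. In C3 females the values were 233, 243, 266, 334 and 521 CPM, and in C3 males 272, 273, 332, 347 and 458 CPM. Every C3 liver lay below every B6 liver of its sex, and the spread among B6 livers was wide. Oat was 3.93-fold lower in C3 females (log2 fold change -1.97 ± 0.19, edgeR adjusted p = 1.46e-07) and 2.77-fold lower in C3 males (-1.47 ± 0.19, edgeR adjusted p = 6.01e-06). Within pools 1, 2 and 3 the log2 difference was -1.75, -2.42 and -1.88 in females and -1.16, -1.70 and -1.66 in males.

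Rhbg encodes an ammonia transporter of the Rhesus glycoprotein family. Its B6 females held 7.97, 11.5, 12.0, 14.3 and 17.1 CPM, and its B6 males 9.67, 13.3, 13.6, 16.8 and 17.6 CPM. The C3 females held 5.85, 7.51, 7.71, 7.90 and 9.92 CPM, and the C3 males 6.86, 7.08, 7.66, 8.35 and 10.5 CPM. The lowest B6 liver lay inside the C3 range in both sexes. Rhbg was 1.60-fold lower in C3 females (log2 fold change -0.68 ± 0.11, edgeR adjusted p = 0.000125) and 1.67-fold lower in C3 males (-0.74 ± 0.11, edgeR adjusted p = 5.98e-05), with within-pool differences of -0.53, -0.60 and -0.84 in females and of -0.71, -0.73 and -0.71 in males.

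The amino acid transporters followed no common pattern. Slc1a2 encodes a high-affinity glutamate transporter (GLT-1) that in liver is found on pericentral hepatocytes, and it showed the largest strain difference of the 10 genes. The livers of B6 females stood at 217, 251, 258, 286 and 325 CPM, and those of C3 females at 45.6, 49.1, 50.8, 55.8 and 56.1 CPM. For males the values were 173, 182, 187, 189.7 and 203 CPM in B6 and 44.2, 46.3, 54.1, 58.0 and 67.1 CPM in C3. The highest C3 liver of either sex was far below the lowest B6 liver. Slc1a2 was 5.19-fold lower in C3 females (log2 fold change -2.38 ± 0.11, edgeR adjusted p = 1.23e-11) and 3.44-fold lower in C3 males (-1.78 ± 0.11, edgeR adjusted p = 6.3e-10). Within pools 1, 2 and 3 the difference was -2.31, -2.39 and -2.41 in females and -1.73, -1.81 and -1.86 in males. By p-value Slc1a2 ranked 41 of 13704 genes in females and 116 in males.

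Slc1a4 encodes a transporter of alanine, serine and other small neutral amino acids (ASCT1). It was not called in any comparison. In B6 females it stood at 5.37, 6.07, 7.34, 9.89 and 13.0 CPM, and in C3 females at 6.74, 11.6, 11.8, 12.8 and 13.7 CPM. The males held 8.79, 9.14, 9.30, 11.03 and 13.3 CPM in B6 and 8.39, 8.74, 9.13, 10.7 and 11.5 CPM in C3. The 4 groups overlapped. Its log2 fold change for C3 over B6 was 0.46 ± 0.19 in females (edgeR adjusted p = 0.0657) and -0.15 ± 0.19 in males (edgeR adjusted p = 0.569).

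The Wnt-responsive marker genes parted. Lgr5 encodes a receptor for R-spondins that strengthens Wnt signalling, and it is itself a Wnt target. From lowest to highest it held 7.59, 9.17, 9.41, 11.2 and 14.9 CPM in B6 females and 5.06, 5.09, 6.16, 6.69 and 8.38 CPM in C3 females. The B6 males held 11.2, 11.3, 12.3, 13.2 and 14.1 CPM and the C3 males 3.44, 4.54, 6.96, 7.66 and 9.95 CPM. The strains were apart in males, while in females the highest C3 liver exceeded the lowest B6 liver. Lgr5 was 1.97-fold lower in C3 males (log2 fold change -0.98 ± 0.17, edgeR adjusted p = 0.000165). In females its log2 fold change of -0.72 ± 0.16 had an edgeR adjusted p of 0.00233 and was not called by edgeR. DESeq2 called it in females at the same thresholds. Within pools 1, 2 and 3 the Lgr5 difference was -0.64, -1.32 and -1.30 in males and -0.84, -0.84 and -0.53 in females. Without B6 male replicate 1 or C3 male replicate 4 the call of Lgr5 in males was lost (edgeR adjusted p of Lgr5 0.00135 without B6 male replicate 1), and without C3 male replicate 1 Lgr5 was also called in females (edgeR adjusted p = 0.000547). The lowest library held 89 read pairs of Lgr5, the smallest count among the 10 genes.

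Axin2 encodes a scaffold of the complex that degrades beta-catenin, and its transcription by beta-catenin is a classical feedback readout of the pathway. It was not called in any comparison. B6 females stood at 6.35, 9.61, 10.8, 12.9 and 13.2 CPM and C3 females at 7.48, 7.87, 9.81, 11.8 and 14.1 CPM. Among males, Axin2 was read at 5.54, 5.58, 7.35, 10.1 and 10.2 CPM in B6 and at 5.33, 6.87, 8.78, 9.41 and 12.6 CPM in C3. The strains shared nearly the same range in each sex. The log2 fold change of Axin2 for C3 over B6 was -0.05 ± 0.22 in females and 0.04 ± 0.23 in males (edgeR adjusted p = 0.880 and 0.912).

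Tbx3 encodes a T-box transcription factor that pericentral hepatocytes express. B6 females held 13.3, 16.4, 21.0, 21.1 and 33.2 CPM and C3 females 16.7, 17.1, 19.5, 22.6 and 28.1 CPM. B6 males held 14.99, 14.99, 24.6, 28.5 and 32.5 CPM and C3 males 11.6, 22.5, 23.2, 26.0 and 30.5 CPM. The groups overlapped throughout, and livers of 1 group differed more than the group means did. The log2 fold change of Tbx3 for C3 over B6 was -0.02 ± 0.26 in females and -0.09 ± 0.26 in males (edgeR adjusted p = 0.974 and 0.822).

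Cyp2e1 and Cyp1a2, cytochromes P450 of the pericentral zone, were called lower in C3 than in B6 in females and not in males. Cyp2e1 encodes the enzyme that oxidises ethanol and acetaminophen, and it was the most abundant of the 10 transcripts. B6 females held 6745, 7394, 8658, 9277 and 10261 CPM of Cyp2e1, and C3 females 4944, 5479.7, 5676, 6425 and 6715 CPM. In males it stood at 6461, 7255, 8956, 9085 and 10935 CPM in B6 and at 6307, 6849, 7768, 8087 and 9698 CPM in C3. The female strains were apart by a narrow margin and the male strains overlapped. Cyp2e1 was 1.44-fold lower in C3 females (log2 fold change -0.53 ± 0.08, edgeR adjusted p = 6.19e-05), just beyond the fold change limit, and it differed by -0.52, -0.71 and -0.44 within pools 1, 2 and 3. In males the log2 fold change was -0.19 ± 0.08 (edgeR adjusted p = 0.0901). Without B6 female replicate 3 the log2 fold change of Cyp2e1 in females was -0.49, inside the limit, and the call was lost. The difference between the strain effects in the sexes on Cyp2e1 was not called (-0.34 ± 0.12, edgeR adjusted p = 0.134).

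Cyp1a2 encodes the enzyme that demethylates caffeine and is a target of the aryl hydrocarbon receptor. Its livers held 389, 454, 496, 546 and 585 CPM in B6 females and 480.5, 517, 559, 583 and 630.4 CPM in B6 males. The C3 females held 235, 254, 292, 311 and 338 CPM, and the C3 males 506, 524, 565, 608 and 666 CPM. Every C3 female lay below every liver of the other 3 groups. Cyp1a2 was 1.73-fold lower in C3 than in B6 females (log2 fold change -0.79 ± 0.09, edgeR adjusted p = 1.62e-06) and 2.0-fold lower in C3 females than in C3 males (-1.0004 ± 0.09, edgeR adjusted p = 2.06e-07). In C3 the sexes differed by -0.97, -1.02 and -1.11 within pools 1, 2 and 3, and in females the strains differed by -0.68, -1.20 and -0.68. Between C3 and B6 males the log2 fold change was 0.04 ± 0.09, and between B6 females and B6 males -0.16 ± 0.09.

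**Figure D2:**
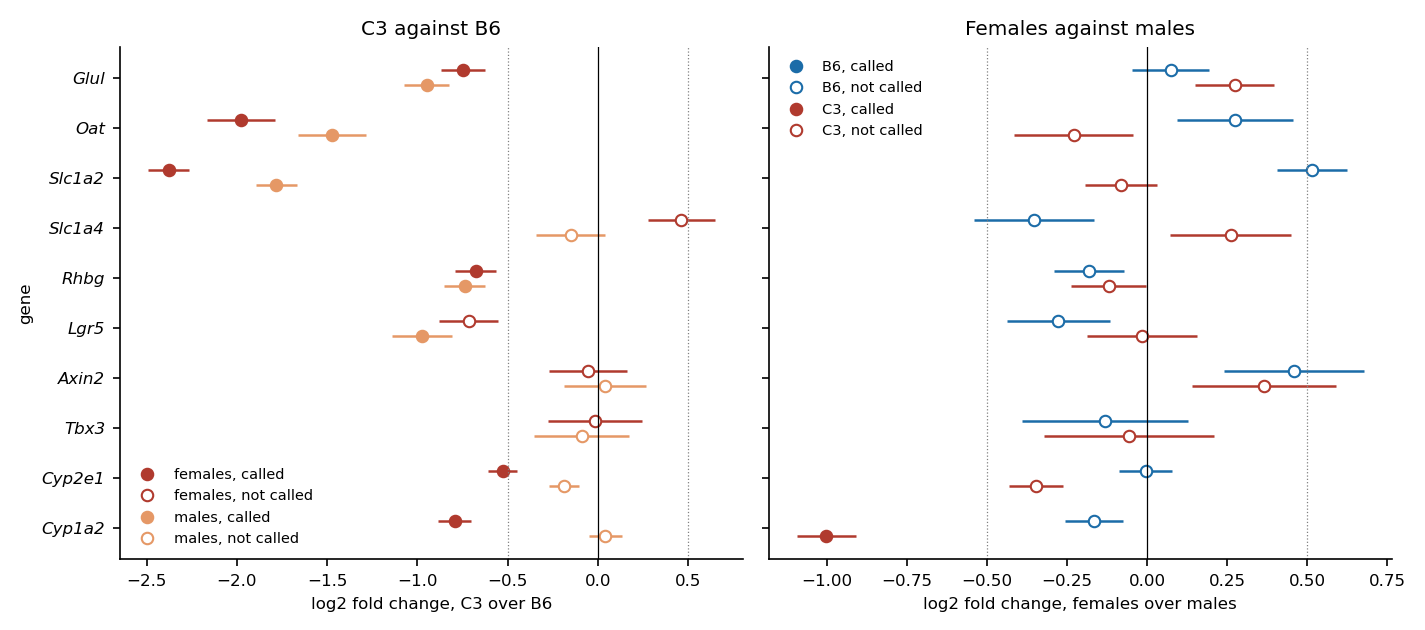
Log2 fold change with its standard error (bars) of each marker gene, C3 over B6 in each sex (left) and females over males in each strain (right), from 5 livers a group, with filled points for called genes and dotted lines at a log2 fold change of 0.5 in either direction. Slc1a2 lies at -2.38 in females and -1.78 in males on the left, and Cyp1a2 in C3 at -1.0004 is the only filled point on the right.

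Between the sexes, the share of marker genes called was near that of all genes. In C3, 1 of the 10 genes, Cyp1a2, was called between females and males, where 6.9% of all genes were, and 3 of 10 had an unadjusted p under 0.05, beside 49% of all genes. In B6 none was called by edgeR, where 6.34% of all genes were. At an unadjusted p under 0.05, 1 of the 10 genes differed between the B6 sexes in edgeR, beside 44.4% of all genes, and DESeq2 and limma each called 1. That gene was Slc1a2, which was 1.43-fold higher in B6 females with no overlap between the sexes (log2 fold change 0.51 ± 0.11, edgeR adjusted p = 0.00144, and 0.56, 0.50 and 0.45 within pools 1, 2 and 3). The 5 against 5 livers of the sexes did not overlap for 10.9% of all genes in B6 and 13.1% in C3. Leaving out B6 female replicate 4, C3 male replicate 2 or C3 male replicate 3 brought the Slc1a2 difference in B6 past the threshold. In C3 the Slc1a2 levels of females and males were close (-0.08 ± 0.11). Cyp2e1 in C3 had a log2 fold change of -0.35 ± 0.08 for females over males, with an edgeR adjusted p of 0.00359.

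Whether the sex difference itself changed with strain was tested as an interaction, which is the female-over-male difference in C3 less that in B6. No marker gene was called by edgeR, and 0.401% of all genes were. At an unadjusted p under 0.05 there were 4 of 10 genes in edgeR, beside 16.1% of all genes, while DESeq2 and limma each called 1. Cyp1a2 missed the threshold narrowly, with an interaction of -0.84 ± 0.13 on the log2 scale (edgeR adjusted p = 0.00101), and ranked 56 of 13704 genes by p-value. It passed without B6 female replicate 1, B6 female replicate 3 or C3 female replicate 2. For Slc1a2 the interaction was -0.60 ± 0.16 (edgeR adjusted p = 0.0455), and its adjusted p lay between 0.0135 and 0.0969 when single livers were left out, above 0.05 in 17 of 20 cases.

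Without regard to pool, the 5 C3 livers all lay below the 5 B6 livers for 4 of the 10 genes in females and 4 in males, where this held for 6.47% and 8.4% of all genes. These were Oat, Slc1a2, Cyp2e1 and Cyp1a2 in females and Glul, Oat, Slc1a2 and Lgr5 in males. Livers of the same pool were also compared with each other, which was chosen after the values were seen. A pool held only 1 or 2 livers of a group. C3 lay below B6 within each of the 3 pools for 7 genes in females and 5 in males. Glul, Oat, Slc1a2, Rhbg and Lgr5 did so in both sexes and Cyp2e1 and Cyp1a2 did so in females. This held for 14% of all genes in females and for 17.4% in males.

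The levels of several marker genes moved with the pool, a comparison chosen after the values were seen. Within each of the 4 groups, the livers of pool 3 had less Glul than those of pool 1, with log2 differences of -0.67 for the females and -0.49 for the males of B6, and of -1.14 and -0.39 for those of C3. Oat and Rhbg went the other way, and their median pool difference over the 4 groups was 0.81 for Oat and 0.58 for Rhbg. Lgr5, Axin2, Cyp2e1 and Cyp1a2 were lower in pool 3 than in pool 1 in each group, with medians of -0.45, -0.23, -0.45 and -0.24. The median for Slc1a2 was 0.00. The pool difference had 1 sign in all 4 groups for 7 of the 10 marker genes, near the share of 64.1% over all genes. Such a shift was thus not particular to the marker genes. Pool was a term of the model. Without it, 3 marker genes were called between strains in females and 2 in males, and Glul and Rhbg were among those no longer called, although their log2 fold changes stayed at -0.70 and -0.69 in females and -0.87 and -0.81 in males.

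**Figure D3:**
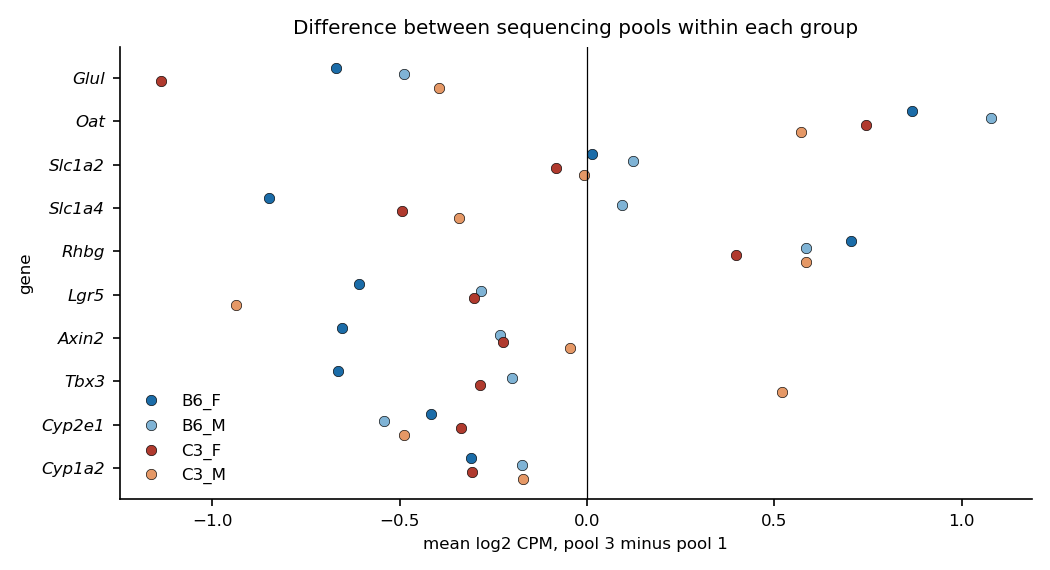
Mean log2 CPM of pool 3 less that of pool 1 within each group (colour), with 2 or 1 livers of a group in each pool. Glul lies between -1.14 and -0.39 and Oat between 0.57 and 1.08, while Slc1a2 stays near 0.

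To compare levels between genes, TPM was used, in which the authors divided counts by gene length. In B6 females Cyp2e1 led with 10784 ± 1720 TPM (SD, n = 5), followed by Oat with 1285 ± 466 TPM and Glul with 1141 ± 265 TPM, whose ranges overlapped. Cyp1a2 at 577 ± 81.2 TPM and Slc1a2 at 49.2 ± 8.38 TPM stood apart from their neighbours. Rhbg (14.7 ± 4.29 TPM), Tbx3 (9.63 ± 3.57 TPM), Axin2 (5.499 ± 1.43 TPM), Lgr5 (4.91 ± 1.34 TPM) and Slc1a4 (4.68 ± 1.68 TPM) formed a chain of overlapping ranges.

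The order shifted in C3 livers. In C3 females Cyp2e1 led with 7093 ± 677 TPM, then Glul with 664 ± 231 TPM, which stood apart from Cyp1a2 (319 ± 43.7 TPM) and Oat (315 ± 126 TPM). Slc1a2, at 9.00 ± 0.69 TPM, overlapped Tbx3 (9.04 ± 1.74 TPM) and Rhbg (8.61 ± 1.74 TPM). In C3 males Cyp1a2 (589 ± 63.6 TPM) overlapped Glul (519 ± 93.3 TPM), and Oat at 304 ± 67.7 TPM lay below both. In B6 males the order was that of B6 females down to Tbx3, and Lgr5 (5.38 ± 0.47 TPM), Slc1a4 (5.37 ± 1.02 TPM) and Axin2 (3.72 ± 1.09 TPM) followed with overlapping ranges. Lgr5 was the lowest of the 10 in both C3 groups (2.81 ± 0.62 TPM in females and 2.69 ± 1.05 TPM in males).

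Of 15 other genes of the pericentral zone, from a list beside the marker genes, some were also called lower in C3 and none higher. In females 5 of 15 were called lower (Lhpp, Cyp2c50, Cyp2c37, Gstm1 and Slc13a3), and in males 3 of 15 were (Lhpp, Cyp2c50 and Cyp2a5). The share of all genes called lower in C3 was 4.77% in females and 5.55% in males. The median log2 fold change of the 15 genes was -0.42 in females and -0.35 in males, beside 0.02 and 0.01 over all genes. Lhpp fell by 1.398 on the log2 scale in C3 females, from 85.2 ± 14.1 to 32.3 ± 3.03 CPM. Cyp2c50, a cytochrome P450 of the epoxygenase family, fell by 0.93 in females and by 0.997 in males. Cyp2a5, the mouse coumarin 7-hydroxylase, fell by 1.42 in C3 males, from 885 ± 194 to 353 ± 35.4 CPM. Between the sexes, Cyp2c37 and Slc13a3 were called higher in B6 females, while in C3 females Cyp2c37 was higher and Gulo lower. Of all genes, 6.34% were called between the sexes in B6 and 6.9% in C3. The epoxygenase Cyp2c37 was higher in females by 1.30 ± 0.08 in B6 and 0.91 ± 0.08 in C3.

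The ligands of the central vein were present at low levels. Wnt2 stood at 5.30 ± 1.33, 4.07 ± 1.34, 3.70 ± 0.78 and 3.19 ± 0.84 CPM in B6 females, B6 males, C3 females and C3 males, and was not called (log2 fold change for C3 over B6 -0.50 ± 0.14 in females, edgeR adjusted p = 0.00919, and -0.26 ± 0.15 in males, edgeR adjusted p = 0.182). Wnt9b, at means between 0.579 and 1.09 CPM, was not called either (-0.50 ± 0.22 and -0.82 ± 0.22). Rspo3, the R-spondin of the central vein, held 7.32 to 10.5 CPM in B6 females and 5.82 to 6.94 CPM in C3 females, and 7.42 to 8.96 CPM in B6 males and 4.39 to 6.62 CPM in C3 males. The strains did not overlap for Rspo3 in either sex, but its log2 fold changes of -0.45 ± 0.10 (edgeR adjusted p = 0.00165) and -0.50 ± 0.10 (edgeR adjusted p = 0.00083) did not pass both thresholds. Of the 8 genes for Wnt ligands, R-spondins and their secretion, 1 was called between strains in females, Wnt5a, which was higher in C3 by 1.24 ± 0.22, and none in males. Calls between strains took in 9.4% of all genes in females and 9.64% in males. By edgeR 6 of these 8 genes had an unadjusted p under 0.05 in females and 4 in males, beside 41.9% and 44.3% of all genes. Porcn, an X-linked gene for the acyltransferase that Wnt secretion needs, was the 1 gene of this list called between the sexes, higher in females by 0.82 in B6 and 0.74 in C3.

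The receptors and transducers of the pathway had 16 of 17 genes tested. Calls between strains, in either direction, took in 9.4% of all genes in females and 9.64% in males. In C3 females 2 of the 16 were higher, Dvl1 and Tcf7l1, and none lower, a share near that of all genes. In C3 males 3 were higher, Dvl1, Tcf7l1 and the Wnt receptor gene Fzd1 (0.77 ± 0.10), and 1 was lower, the Wnt receptor gene Fzd4 (-0.72 ± 0.13). Dvl1, a Dishevelled adaptor, was higher in C3 by 0.76 ± 0.07 in females and 0.65 ± 0.07 in males. Tcf7l1, a TCF factor known as a repressor, was higher in C3 by 0.91 ± 0.16 in females and 0.81 ± 0.16 in males. The R-spondin receptor Lgr4 was not called, at 0.41 ± 0.10 in females and 0.38 ± 0.11 in males (edgeR adjusted p = 0.00525 and 0.0105). Ctnnb1, which encodes beta-catenin, had log2 fold changes of 0.06 ± 0.04 and 0.18 ± 0.04, and Tcf7l2, the main TCF factor of liver, of -0.22 ± 0.13 and -0.03 ± 0.13, with no call. Between the sexes Fzd6 (1.49 ± 0.27) and Tcf7 (1.17 ± 0.14) were higher in C3 females, where 6.9% of all genes were called between the sexes. In B6 none was called by edgeR, and 7 of the 16 had an unadjusted p under 0.05, near the 44.4% of all genes.

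Of the 13 inhibitors and members of the destruction complex, 11 were tested and none was called between strains. By edgeR 6 of the 11 had an unadjusted p under 0.05 in each sex, beside 41.9% of all genes in females and 44.3% in males. Rnf43 and Znrf3, ubiquitin ligases that remove Frizzled receptors, had log2 fold changes for C3 over B6 of -0.04 ± 0.20 and 0.00 ± 0.11 in females and of -0.09 ± 0.20 and 0.07 ± 0.12 in males. Notum, a secreted Wnt deacylase, was higher in females of both strains, by 0.63 ± 0.09 in B6 and 0.51 ± 0.10 in C3.

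Among 18 genes of glutamine, glutamate and proline metabolism outside the marker set, 14 were tested. Slc1a5, a glutamine transporter related to Slc1a4, was the 1 gene called between strains in each sex, where it was lower in C3 (log2 fold change -1.68 ± 0.23 in females and -2.001 ± 0.26 in males). Its mean did not exceed 1.55 CPM in any group. Among all genes, 9.4% were called between strains in females and 9.64% in males. Gls2, the liver glutaminase of the periportal zone, was not called (-0.22 ± 0.10 in females and -0.29 ± 0.10 in males). Asns, asparagine synthetase, was lower in females of both strains (log2 fold change -4.38 ± 0.46 in B6 and -3.44 ± 0.48 in C3) and was not called between strains.

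Genes of the aryl hydrocarbon receptor numbered 7, with 6 tested. None of the 6 was called between strains in females and 1 was in males, beside 9.4% and 9.64% of all genes. The receptor gene Ahr stood at 68.3 ± 13.1 CPM in B6 females and 46.7 ± 8.15 CPM in C3 females (log2 fold change -0.54 ± 0.14, edgeR adjusted p = 0.00513) and was not called in males either (-0.34 ± 0.14, edgeR adjusted p = 0.0681). Cyp1a1, its most inducible target, was near 1 CPM in all groups, with means from 0.540 to 0.911 CPM, and was not called. Nqo1, which encodes a quinone reductase, was lower in C3 males than in B6 males (log2 fold change -1.21 ± 0.15) and higher in females of both strains, by 0.90 ± 0.14 in B6 and 1.53 ± 0.15 in C3. In C3 the female-over-male difference of Nqo1 was opposite in sign to that of Cyp1a2.

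The other end of the lobule was read from 11 periportal genes. In females 1 of the 11 was called lower in C3 and in males 2, beside 4.77% and 5.55% of all genes. None was called higher. At an unadjusted p under 0.05 in edgeR, 6 of the 11 differed in females and 5 in males, beside 41.9% and 44.3% of all genes. Their median log2 fold change was -0.13 in females and 0.05 in males. Hsd17b13, a lipid droplet enzyme, was lower in C3 with log2 fold changes of -0.92 ± 0.16 in females and -1.19 ± 0.16 in males, and Hal, histidine ammonia-lyase, with -0.68 ± 0.11 in males. Cyp2f2 was lower in females of both strains (-0.86 ± 0.10 in B6 and -0.88 ± 0.11 in C3) and was not called between strains. The marker genes and the periportal genes were not tested against each other as sets.

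**Figure D4:**
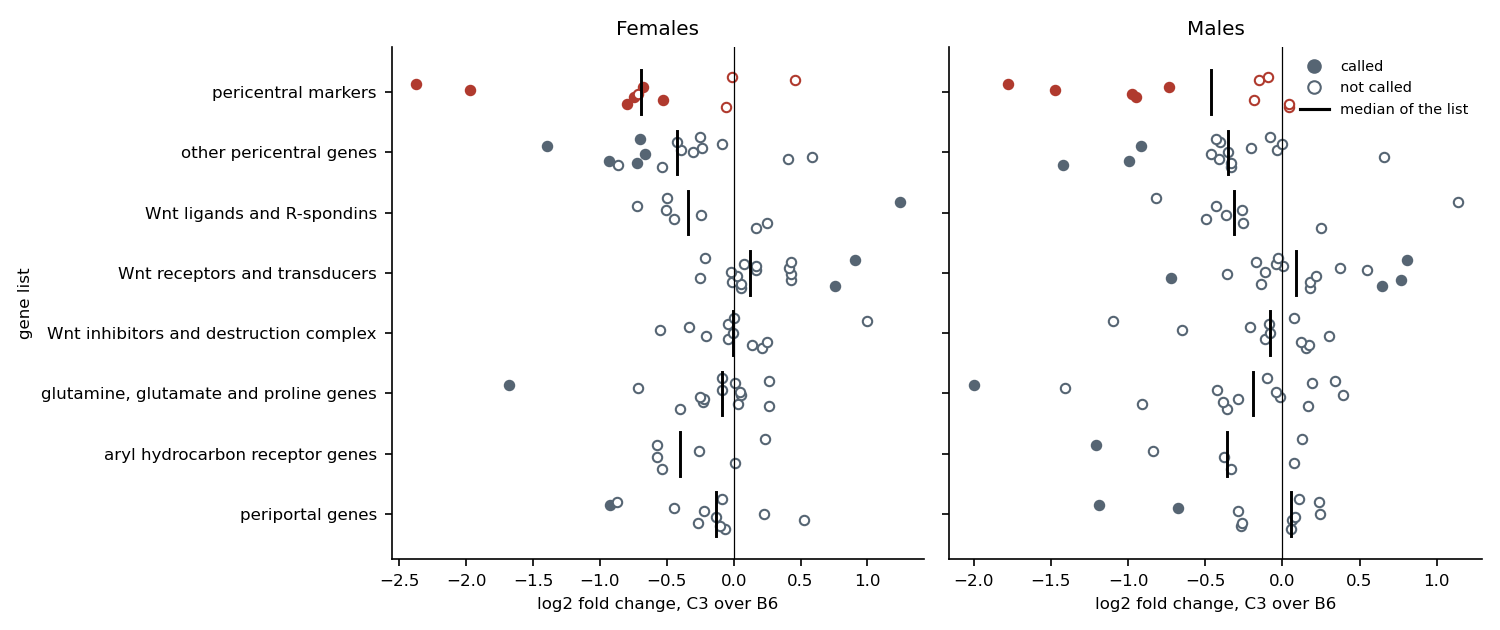
Log2 fold change of C3 over B6 for each tested gene (point) of the pericentral marker set and of 7 other gene lists, in females (left) and males (right), with filled points for called genes and a line at the median of each list. The median of the marker genes is -0.70 in females and -0.46 in males, and that of the periportal genes -0.13 and 0.05.

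The livers also differed in markers of their cell types, given as summed levels over each list. These sums are CPM of the library total without TMM factors, while levels of single genes are TMM-normalised CPM. All 6 hepatocyte markers were detected, with sums of 100113 to 130979 CPM in B6 females, 132553 to 158783 in C3 females, 86839.7 to 104148 in B6 males and 106427 to 126676 in C3 males, so that the sums were higher in C3 livers of both sexes. Most of each sum was the albumin gene Alb, at 88002.7 ± 13135 CPM in B6 and 122610.0 ± 11764 in C3 females and at 66015 ± 10484 CPM in B6 and 93640.8 ± 8935 in C3 males. None of the 6 was called between strains by edgeR, with 3 of 6 in females and 4 of 6 in males at an unadjusted p under 0.05, and Tdo2 lay the other way (log2 fold change -0.66 ± 0.14 in females and -0.53 ± 0.14 in males). Sums of stellate cell markers (5 genes) were lower in C3, with none of the 5 called between strains in either sex. They held 523 to 607 CPM in B6 and 413 to 443 in C3 females, and 409 to 446 CPM in B6 and 323 to 375 in C3 males. Sums of endothelial markers (6 genes) overlapped, at 396 to 486 CPM in B6 and 353 to 425 in C3 females, and at 309 to 369 and 296 to 365 CPM in males. Of the 6, Lyve1 was called lower in C3 females (means of 11.5 CPM in B6 and 5.66 in C3), and none was called between strains in males. Kupffer cell markers (5 genes) overlapped as well, at 338 to 454 and 232 to 356 CPM in females and at 206 to 339 and 152 to 227 CPM in males, with Adgre1 and Vsig4 called lower in C3 of both sexes. Sums of lymphocyte markers (5 genes) were low and also apart between strains, with none of the 5 called in either sex. They held 3.13 to 5.19 CPM in B6 and 1.97 to 2.66 in C3 females, and 1.28 to 4.19 CPM in B6 and 0.727 to 1.01 in C3 males. Bile duct markers (5 genes) stood at 23.7 to 41.9 and 26.5 to 40.9 CPM in B6 and C3 females. Their sums were apart in males, at 32.9 to 44.3 CPM in B6 and 20.3 to 28.1 in C3, with none of the 5 genes called. Most of this sum was Spp1, at means of 31.6 CPM in B6 and 19.4 in C3 males. Sox9 lay the other way in males (means of 3.85 and 4.78 CPM) and was called higher in C3 females. Sums of pancreas markers (5 genes, with Prss2 and Pnlip at 0 in every liver) overlapped and did not exceed 55.0 CPM. Of the 2 that were tested, Cela1 was called higher in C3 of both sexes. Cela2a was called lower in C3 females, with means of 0.45 CPM in B6 and 0 in C3 females. The part of these shifts in the strain differences of the marker genes was not tested.

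Livers of 1 group were compared for genes that varied together. After group and pool means were removed, Glul was compared with each of the other 9 genes over the 20 livers, with two-sided permutation tests of 100000 resamples. The residuals were permuted freely, although removing the means left fewer free values than livers. The permutation p-values are therefore likely too small. No relation passed an adjusted p of 0.05. The highest r was with Slc1a2 (r = 0.56, permutation p = 0.0105, adjusted p = 0.0945, and rho = 0.47, permutation p = 0.0398, adjusted p = 0.358). It was 0.66 in the 8 livers of pool 1 and 0.44 in the 7 of pool 3, and 0.36 over all pools without the 2 livers farthest from the median of Glul. Pool 2 held too few livers for a value of its own. With Oat, Glul had an r of -0.13, and with Rhbg an r of 0.42. When pool means were kept in, 6 of the 9 relations passed, and the r with Oat became -0.73 and that with Rhbg -0.60. Without B6 female replicate 1, 2 of the 9 relations passed, those with Slc1a2 and Axin2, and without B6 female replicate 4 that with Slc1a2 passed.

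All 45 pairs of the 10 genes were then compared, which was chosen after the values were seen. The residuals were permuted in the same way, so these p-values are likely too small as well. Of these pairs 30 had an r above 0, and the median r was 0.16. A single pair passed an adjusted p of 0.05, which was Axin2 and Tbx3. Their r was 0.86 (permutation p = 1e-05, the smallest that the resamples can give, adjusted p = 0.00045) and their rho 0.79 (permutation p = 7e-05, adjusted p = 0.00315). It was 0.80 without the 2 livers farthest from the median of Axin2, 0.92 in pool 1 and 0.88 in pool 3. Neither gene was called in any comparison between groups, and the relation is within groups and pools.

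**Figure D5:**
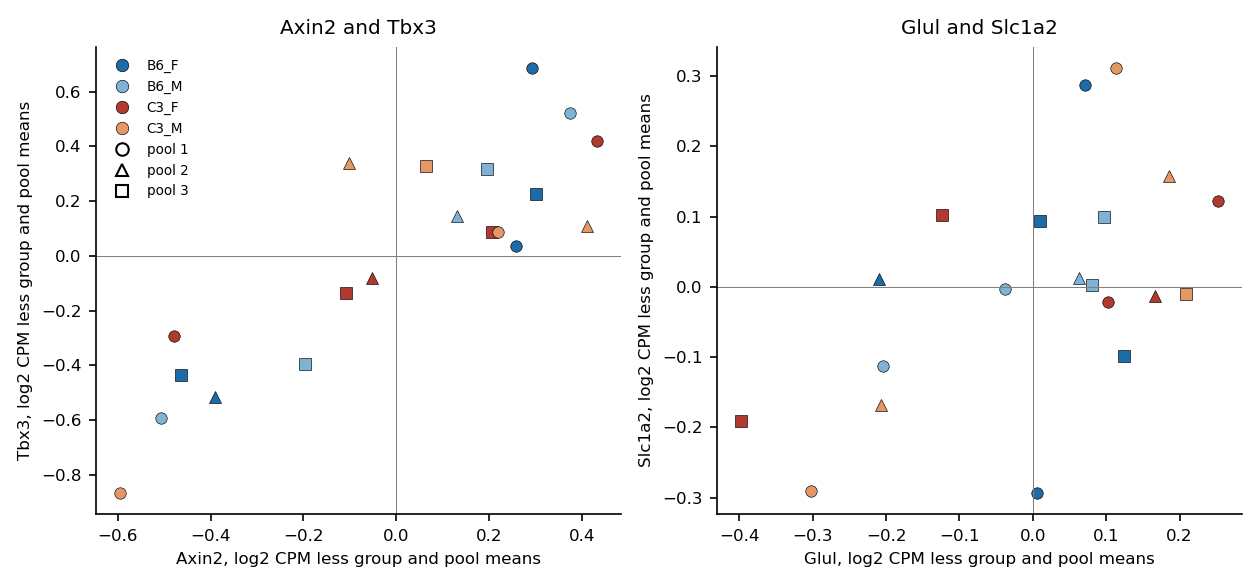
Log2 CPM less group and pool means in each of the 20 livers, Axin2 against Tbx3 (left, r = 0.86) and Glul against Slc1a2 (right, r = 0.56), with colour for the group and shape for the pool. Axin2 and Tbx3 rise together, with livers of all 4 groups along the trend.

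The genes whose residual pattern was most like that of Glul over the 20 livers, among all genes tested and with no test because they were picked for it, were Csad (r = 0.84), Slc30a1 (0.84), Ccnb1 (0.81), Tnfaip2 (0.80) and Gtse1 (0.79). Csad encodes the decarboxylase of taurine synthesis and stood at 68.6 ± 21.6, 148 ± 47.0, 14.97 ± 3.02 and 71.9 ± 25.4 CPM in the 4 groups (B6 females, B6 males, C3 females, C3 males). Ccnb1 and Gtse1, both cell cycle genes, had means under 1 CPM in each group. The marker genes ranked lower, with Slc1a2 at rank 370, Axin2 at 909 and Tbx3 at 1098.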

How the data were processed

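RNA was sequenced from 20 livers as stranded, ribosomal-RNA-depleted total RNA with paired reads of 125 bases. Per the study's methods the authors trimmed adapters with cutadapt 1.9.1, aligned to mouse build mm9 with STAR 2.5.1b and counted read pairs on RefSeq genes with featureCounts of Subread 1.5.0-p1, by strand, without pairs that aligned more than once or fell on more than 1 gene. The deposited counts are whole read pairs per gene, not normalised. The authors also deposited TPM values, for which the gene length used is not given in the sources used here. In the deposited tables the headers of the symbol and ID columns are exchanged. All 20 sample columns were matched to the labels and 0 columns were left without a sample.

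Counts of the 20 livers were fitted in edgeR 4.0.16 (R 4.3.3) by the quasi-likelihood test with TMM normalisation, filterByExpr by group, and group and pool as terms. P-values were adjusted by Benjamini-Hochberg over 13704 genes, and genes were called at an adjusted p under 0.001 with a log2 fold change beyond 0.5. Errors of fold changes are standard errors and errors of levels are SD with n = 5. CPM values are TMM-normalised counts, except the summed cell type markers, which are counts over the library total without TMM factors. Covariation used log2 CPM with a prior count of 2, with group and pool means removed, and 100000 permutations (Python 3.11.15, numpy 2.4.6, scipy 1.17.1). The model's step was tested on simulated counts. Pairs of replicates differed by 20.1 to 189 times the sampling noise (chi-square per degree of freedom), over the 40 pairs within groups, so that no 2 libraries of a group were duplicates.

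The 10 marker genes and 14 further lists were chosen with earlier results of these data known. Beside the 10, text names 12 preset genes of Wnt signalling, the aryl hydrocarbon receptor and the other zones, up to 2 called genes of each list and comparison with the largest change, and the 5 genes most like Glul. Cell type markers are given as sums. Of 134 listed genes, 123 were tested. Alternatives were DESeq2 1.42.0, limma 3.58.1 on log2(TPM + 1) and log2(TPM + 0.1), other normalisations, filters, thresholds and terms, and leaving out each liver.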

Additional observations from a re-analysis of the deposited data

Results flagged for a closer look

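The female-over-male difference was set against strain by a test of the difference itself, and Cyp1a2 and Slc1a2 had an adjusted p under 0.05. For Cyp1a2 the interaction was -0.84 ± 0.13 on the log2 scale (edgeR adjusted p = 0.00101), with C3 females as the low group. For Slc1a2 it was -0.60 ± 0.16 (edgeR adjusted p = 0.0455), with B6 females as the high group, and the adjusted p rose above 0.05 on leaving out any 1 of 17 of the 20 livers (highest 0.0969). In 40 sets of 5 livers, 1 for each gene and group, no liver stood apart from the other 4 of its group by Dixon's test on CPM at a critical value of 0.71. On log2 CPM, a scale added after seeing the data, 1 set passed it, Slc1a4 in C3 females, whose lowest liver gave a ratio of 0.77 against 0.70 on CPM. Chance passes about 1 in 20 such sets.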

How the results depend on the processing

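Over 12 alternatives and 20 livers left out in turn, 1590 fold changes of the 10 genes were recomputed: 1549 kept their side of the threshold, 19 lost a call, 22 gained one and 0 called values changed sign. The 69 other changes of sign were in values called in neither fit. Oat and Slc1a2 were called between strains in both sexes under every alternative. Lgr5 was also called between strains in females by DESeq2 and at an adjusted p under 0.05. Without the pool term, 3 genes were called between strains in females and 2 in males, and against a log2 fold change of 0.5 (glmTreat) 2 in each. With only the groups compared in the fit, 4 were called in each sex, without Cyp2e1 and Rhbg in females and without Lgr5 in males. Between the sexes of B6, 1 gene, Slc1a2, was called by DESeq2, with upper-quartile normalisation, by limma on log2(TPM + 1), log2(TPM + 0.1) and log2(TPM + 1) without a filter, and at an adjusted p under 0.05, where the sexes of C3 gave 2. The interaction was called for 1 gene, Cyp1a2, by DESeq2, without the filter on low counts and by limma on log2(TPM + 1) and log2(TPM + 0.1), and for 2 at an adjusted p under 0.05. With pool means kept, 6 relations of Glul passed, and the r with Rhbg turned to -0.60 and that with Cyp2e1 to 0.75. Leaving out 1 liver gave 5 to 7 calls between strains in females and 4 to 5 in males, 0 to 1 between the sexes of B6, 1 in C3, 0 to 1 for the interaction and 0 to 2 relations of Glul. Over all genes, 50.9% of calls between the B6 sexes were higher in females, against 64.3% with upper-quartile normalisation, 68.8% with log2(TPM + 1) and 71.6% with log2(TPM + 0.1), and 59.6% in C3 against 70.0%, 73.0% and 77.4%.

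The replicate numbers share only a number. With group means removed, the mean correlation of same-numbered livers was -0.19, -0.24, 0.22 and 0.18 over the 4 comparisons of groups. With pool means removed as well, it was 0.10, -0.01, 0.06 and 0.01. With the replicate number as a block, 6 and 5 genes were called between strains in females and males, 0 and 1 between the sexes of B6 and C3, and 0 for the interaction, the same counts as without the block. The smallest count among the 10 genes was 89 read pairs of Lgr5. The 1 added to TPM before the log makes fold changes on log2(TPM + 1) understate those of low genes.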
